A study of Mus musculus with 721 samples.

Results

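The genes described are the semaphorins and their plexin and neuropilin receptors, the Slits and their Robo receptors, the ephrins and their Eph receptors, and the netrins with their receptors Dcc and Unc5. They were taken by gene symbol alone, with no measured value, which gave 70 entries (69 symbols, since Efna5 has 2 entries) of 32806 Ensembl genes in the deposited table. The material was 721 single cells from the pancreas of mouse embryos that carry a Neurogenin 3-eGFP reporter, each sorted for eGFP, so every group carries the reporter and was gated on eGFP protein. The first 2 days, E11.5 and E12.5, have run 1 alone, and E13.5, E14.5 and E15.5 have runs 1 and 2, which gives 8 cell sets of 1 day and 1 run. Levels are in FPKM, which counts fragments relative to transcript length and to the depth of the cell. A cell was kept with a minimum of 100000 fragments and 1500 genes reaching 1 FPKM, which left 658 cells and removed 63.

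Kept cells were placed in states by transcripts that are not guidance genes. Neurog3-only cells had Neurog3 at 10 FPKM or more with Fev below it (165 cells), Neurog3 and Fev cells had both (83), and Fev-only cells had Fev without Neurog3 (66). Insulin cells had Ins1 or Ins2 at 100 FPKM or more with Gcg below it (57), and glucagon cells the reverse (50). Hormone states were assigned before the Neurog3 and Fev states, with no limit on Neurog3, Fev, Sst or Ghrl. Mean Neurog3 was 155 FPKM in insulin and 355 in glucagon cells, and mean Ghrl 6278 and 406. Medians were 1.29 FPKM for Neurog3 and 0 for Ghrl in both states. Neurog3 is the transcription factor that starts endocrine differentiation, and Fev marks the precursors that follow it. The remaining kept cells were 17 with both hormones, 38 with Sst or Ghrl at 100 FPKM or more, 61 with at least 2 of 6 acinar or tip markers, 43 with at least 3 of 8 leukocyte markers, 13 with at least 3 of 7 endothelium markers and 65 with none of these. Sets are listed by day (E13.5, E14.5, E15.5), run 1 before run 2. A level is the mean FPKM over the cells of a state in a set with at least 5 cells, and its SD is taken over sets. The labels name no animals, so the spread between sets may be technical and p-values measure that spread alone.

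Guidance molecules were first described in the growing nervous system, where they steer axons by attraction and repulsion. Semaphorins signal through plexins, with neuropilins as co-receptors for the secreted class 3 members. Ephrins sit in the membrane and bind Eph receptor tyrosine kinases on the neighbouring cell, and both sides can signal. Slits bind Robos, and netrins bind Dcc and Unc5 receptors. Outside the nervous system the same families act in vessel growth, in sorting of cells at tissue borders and in cell migration, and Eph and ephrin signalling, Slit and Robo signalling and semaphorins have each been studied in pancreas and islets.

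Promoter sequences are shown for the pair of members that fell in each of the 4 comparisons with Neurog3-only cells, Sema3g and Efna4, and for Epha7, which rose in both the Fev-only and the glucagon comparison. Each runs 5′ to 3′ on the strand of the gene, from 250 bases before to 50 after a RefSeq start on GRCm38.p6, with every CANNTG (the E-box, the core bound by basic helix-loop-helix factors such as Neurog3) in capitals. CANNTG reads the same on both strands. The windows are chr14:31217623-31217922 (plus strand) for Sema3g, chr3:89337979-89338278 (minus strand) for Efna4 and chr4:28812881-28813180 (plus strand) for Epha7.
Sema3g: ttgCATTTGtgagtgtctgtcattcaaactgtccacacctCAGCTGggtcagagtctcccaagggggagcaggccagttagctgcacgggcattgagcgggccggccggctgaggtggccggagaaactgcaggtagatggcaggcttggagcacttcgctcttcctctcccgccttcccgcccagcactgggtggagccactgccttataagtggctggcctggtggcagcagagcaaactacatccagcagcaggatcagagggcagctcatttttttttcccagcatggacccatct
Efna4: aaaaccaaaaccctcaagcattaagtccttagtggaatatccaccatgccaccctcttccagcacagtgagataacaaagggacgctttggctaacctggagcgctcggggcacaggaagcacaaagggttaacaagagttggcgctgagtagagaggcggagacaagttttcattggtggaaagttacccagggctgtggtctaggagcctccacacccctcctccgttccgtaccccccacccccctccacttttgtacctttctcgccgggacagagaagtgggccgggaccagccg
Epha7: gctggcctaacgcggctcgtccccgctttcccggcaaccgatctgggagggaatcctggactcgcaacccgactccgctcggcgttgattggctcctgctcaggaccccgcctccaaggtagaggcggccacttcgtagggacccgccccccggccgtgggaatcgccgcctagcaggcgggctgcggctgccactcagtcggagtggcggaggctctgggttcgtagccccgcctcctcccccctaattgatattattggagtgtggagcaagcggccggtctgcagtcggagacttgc
Sema3g held 2 E-boxes in this window, and Efna4 and Epha7 held 0. Over the 75 promoters of 59 member symbols found in the RefSeq table, 50.67% held CANNTG, against 72.31% of all 32851 promoters. The narrower form CAGATG, with its reverse complement CATCTG, was in 6.667% of member promoters and 17.15% of all. These are matches of letters and say nothing of binding.

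Kept cells held 101675 to 1990000 fragments (median 587177) and 1531 to 12309 genes at 1 FPKM or more (median 5571.5), and median genes per state lay between 5258 in Fev-only and 6418 in glucagon cells. GC-rich transcripts were low in 2 sets. The median log2 level of 151 genes over 60% GC, against 2961 genes of 40 to 50%, stood at -1.47 in E12.5 run 1 and -1.02 in E13.5 run 1 and between -0.29 and 0.90 in the other 6. The members are GC-rich, with a median of 55.93% over 68 entries against 49.07% over 21901 genes. By day, 95.9% to 100% of cells held Y-linked transcripts at E15.5 and before E13.5, while 95.7% to 100% held Xist on the days between. The runs of a day shared 58, 83 and 77 index pairs. At E14.5, 1 pair of cells with the same index pair correlated at 0.874 across runs, with the next pair at 0.763; both cells held both hormones and entered no comparison.

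Over the 5 endocrine states at E13.5 to E15.5, 38 of the 70 entries had a mean of 1 FPKM or more, 2 of them 10 or more, and 32 lay below 1. Plxnb2, a plexin that binds class 4 semaphorins, was the most abundant member at 47.4 FPKM averaged over states. Its levels were 52.1 ± 13.7 FPKM (SD, n = 6 sets) in Neurog3-only, 47.4 ± 36.95 in Neurog3 and Fev, 35.3 ± 16.2 in Fev-only (both n = 6), 42.4 ± 17.5 in insulin (n = 3) and 60.1 ± 27.9 in glucagon cells (n = 4). These ranges overlapped in every state, and between 59% and 84% of cells of a state held it at 1 FPKM or more. The next members by level were Epha7 (13.3 FPKM), Sema4a (9.02), Efna1 (8.96) and Sema6a (7.76), and each of these varied widely between sets.

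Among ligands, each family had a leading member. Of class 3 it was Sema3c, of class 4 Sema4a, of class 5 Sema5a (0.993 FPKM), of class 6 Sema6a, and Sema7a, the 1 class 7 gene, lay at 0.045 FPKM. Slit1 led the Slits at 5.50 FPKM, while Slit2 (0.580) and Slit3 (1.17) were lower. Of the netrins, Ntn4, a laminin-like netrin of basement membranes, led at 1.32 FPKM, and Ntn1, the classical Dcc ligand, averaged 0.237. Efna1 led the ephrin-A ligands and Efnb1 the ephrin-B ligands at 1.96 FPKM, with Efnb2 at 0.568. Among receptors, Nrp1 averaged 2.39 FPKM and Nrp2 1.37, Robo2 3.89 and Robo1 1.05, Ephb2 2.93, and Unc5a 3.97. Dcc averaged 0.327 FPKM and was at 1 FPKM or more in 3.03% to 11.2% of the cells of a state.

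**Figure D1:**
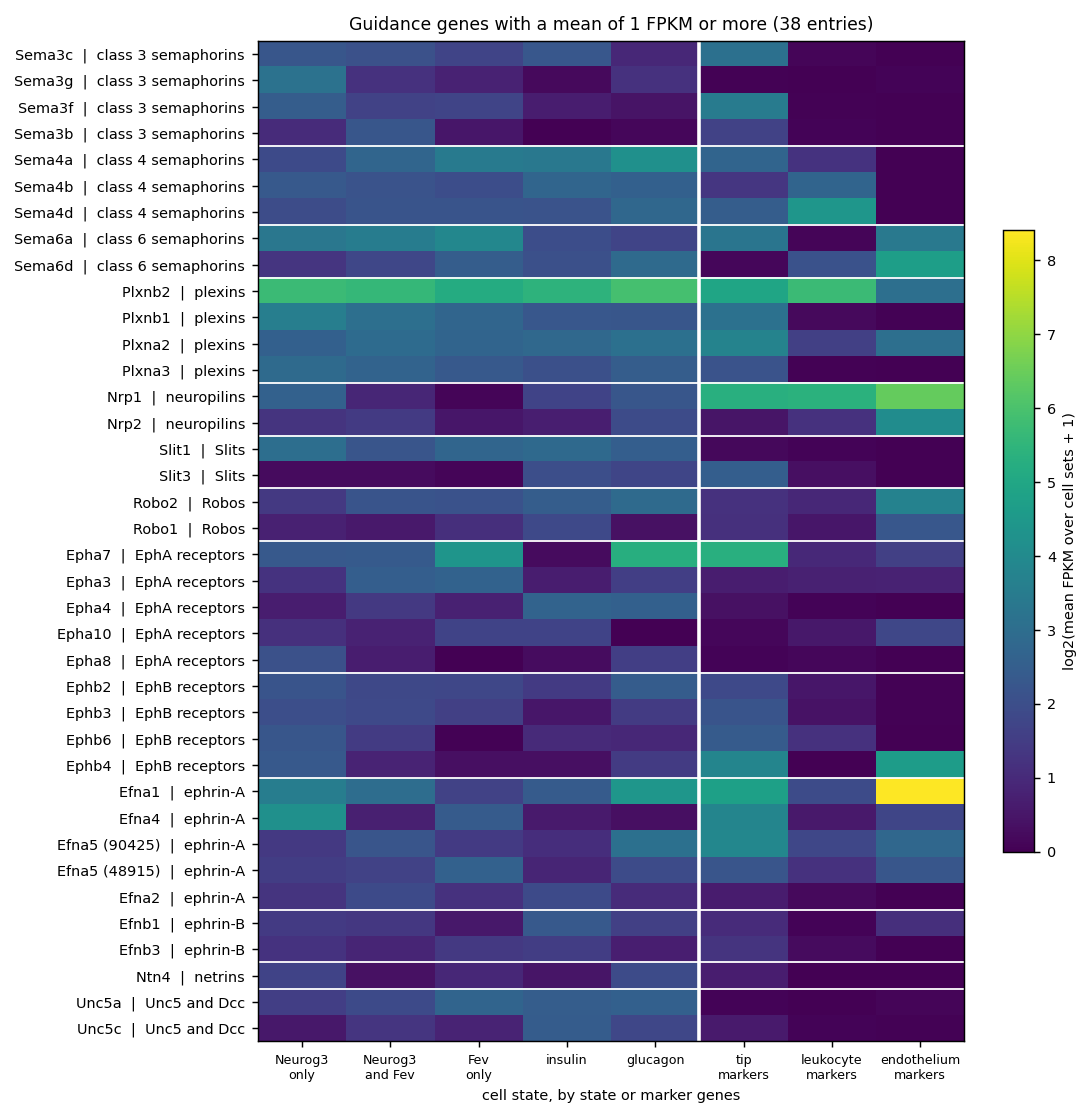
Mean level over cell sets, as log2(mean FPKM + 1), of the 38 entries with a mean of 1 FPKM or more (rows, by family; the numbers after Efna5 are the ends of its Ensembl identifiers) in 5 endocrine states (left of the line; E13.5 to E15.5) and in cells with tip, leukocyte or endothelium markers (right). Plxnb2 is high in all 5 endocrine states, Nrp1 is high to the right of the line, and Efna1 in endothelium-marker cells is the brightest cell at 338 FPKM.

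Which members change as Neurog3 cells move to Fev and to hormone expression was asked with 1 limma model over the state means, with the cell set as a block, on log2(mean FPKM + 1). A filter of 1 FPKM on the mean over all means used kept 15681 genes and 40 of the 70 members. A member high in a single state can pass this filter through that state, so no count over the 40 stands for the families as a whole. Differences carry their standard error and an adjusted p from limma with Benjamini-Hochberg adjustment over all 15681 genes, with a threshold of 0.05. The 4 comparisons with Neurog3-only cells share those cells and are not independent of each other. Of these states, Neurog3-only cells alone reached the minimum of 5 cells in E11.5 and E12.5. In the differences these early means are absorbed by the set term, but they count in the 1 FPKM filter.

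Sema3g, a secreted class 3 semaphorin, was highest in the Neurog3-only state. Its 6 sets measured 8.04, 7.10, 5.02, 6.75, 12.8 and 8.24 FPKM. In Neurog3 and Fev cells the same 6 sets read 1.30, 1.04, 0.690, 4.60, 0.00 and 0.238 FPKM. From E13.5 on, every Neurog3-only set lay above every Neurog3 and Fev set, while the 2 earlier Neurog3-only sets, described below, were low.
In Fev-only cells the sets read 0.00, 3.76, 0.774, 0.036, 0.00 and 0.00 FPKM, again without overlap. Insulin cells had 3 sets (E14.5 run 2 and both of E15.5), at 0.475, 0.00 and 0.00 FPKM. Glucagon cells had 4 sets (E13.5 run 2, both of E14.5 and E15.5 run 2), at 5.21, 0.00, 0.00 and 0.036 FPKM. The E13.5 run 2 glucagon set alone reached the range of Neurog3-only cells. By cell, 60 of 152 Neurog3-only cells held Sema3g at 1 FPKM or more (39.5%, 95% exact interval 31.6 to 47.7%), against 11 of 80 Neurog3 and Fev cells (13.8%, 7.07 to 23.3%) and 3 of 66 Fev-only cells (4.55%, 0.947 to 12.7%). These intervals cover counting error only.
Sema3g fell by 2.16 ± 0.49 on the log2 scale in Neurog3 and Fev cells (adjusted p = 0.0265, limma), by 2.60 ± 0.49 in Fev-only (adjusted p = 0.00245), by 2.73 ± 0.63 in insulin (adjusted p = 0.0151) and by 2.55 ± 0.57 in glucagon cells (adjusted p = 0.00875). Within run 1 the differences were -2.53, -2.91, -3.08 and -3.21 and within run 2 -1.79, -2.29, -2.41 and -2.17, each the same way and none past the threshold with so few sets. In the comparison with Neurog3 and Fev cells the call was lost without E13.5 run 1, E14.5 run 1, E15.5 run 1 or E15.5 run 2, and in that with insulin cells without E14.5 run 2, E15.5 run 1 or E15.5 run 2. With glucagon cells it was lost without E14.5 run 1, E14.5 run 2 or E15.5 run 2, and with Fev-only cells it was kept whichever set was left out.

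Efna4, an ephrin-A ligand anchored to the membrane by a lipid, was also highest in the Neurog3-only state, with more scatter between sets. In Neurog3-only cells its 6 sets measured 1.91, 7.95, 8.73, 19.5, 29.9 and 37.7 FPKM. In Neurog3 and Fev cells it was listed at 0 FPKM in 5 of 6 sets and at 3.996 in E14.5 run 2. In Fev-only cells it was at 0 in 4 of 6 sets, 5.07 in E13.5 run 2 and 21.03 in E15.5 run 2, where 1 of 8 cells at 168 FPKM gave the whole mean. Insulin cells read 0, 0 and 1.59 FPKM, and glucagon cells 1.06 at E13.5 and 0 in the other 3 sets.
The level rested on few cells: 37 of 152 Neurog3-only cells (24.3%, 17.8 to 31.96%) held Efna4 at 1 FPKM or more, against 2 of 80 Neurog3 and Fev (2.5%, 0.304 to 8.74%), 3 of 66 Fev-only, 1 of 55 insulin and 1 of 43 glucagon cells. Efna4 fell by 3.37 ± 0.68 on the log2 scale in Neurog3 and Fev cells (adjusted p = 0.0106, limma), by 2.58 ± 0.68 in Fev-only (adjusted p = 0.0221), by 3.76 ± 0.87 in insulin (adjusted p = 0.0148) and by 3.84 ± 0.78 in glucagon cells (adjusted p = 0.0044). Within run 1 the values were -3.26, -3.26, -3.82 and -3.27 and within run 2 -3.49, -1.91, -3.70 and -3.92, none past the threshold. The call in Neurog3 and Fev cells was lost without E14.5 run 1, E15.5 run 1 or E15.5 run 2, that in Fev-only cells without E14.5 run 1, E14.5 run 2 or E15.5 run 1, and that in insulin cells without E14.5 run 2, E15.5 run 1 or E15.5 run 2. The glucagon call was kept whichever set was left out. Efna4 lies at chr3:89333390-89338028 on the minus strand (GENCODE vM21, GRCm38), and 168 of its 1599 exon bases overlap the antisense gene 4731419I09Rik, whose reads cannot be told apart in unstranded libraries.

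Nrp1, the co-receptor for class 3 semaphorins and for Vegfa, was near 0 in Fev-only cells. In Neurog3-only cells its 6 sets measured 2.71, 5.39, 11.2, 5.25, 2.40 and 3.29 FPKM. In Fev-only cells it lay at 0.00, 0.06, 0.232, 0.00, 0.061 and 0.113 FPKM in the same order of sets. The groups did not overlap, and 1 of 66 Fev-only cells reached 1 FPKM against 40 of 152 Neurog3-only cells.
Nrp1 fell by 2.34 ± 0.52 on the log2 scale in Fev-only cells (adjusted p = 0.00789, limma), with -2.29 in run 1 and -2.40 in run 2 alone, neither past the threshold, and the call was kept without any 1 set. Neurog3 and Fev cells stood between, at 0.189 to 0.697 FPKM in 4 sets, 0.00 in E15.5 run 1 and 3.59 in E14.5 run 2 (log2 difference -1.74 ± 0.52, adjusted p = 0.108). Without E14.5 run 2 this difference passed the threshold as well, as did that of insulin cells. Insulin cells read 6.62, 0.00 and 0.014 FPKM and glucagon cells 5.50, 5.72, 0.12 and 3.56, with adjusted p of 0.358 and 0.518 against Neurog3-only cells. Nrp2 did not pass the test in any comparison, with levels between 0.410 FPKM in Fev-only and 2.75 in glucagon cells.

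Ephb4, the receptor that pairs with Efnb2 on vessels, was lower in Fev-only cells. Neurog3-only sets read 8.27, 5.22, 0.647, 2.32, 2.25 and 5.94 FPKM and Fev-only sets 0.00, 0.34, 0.00, 0.971, 0.245 and 0.061. The ranges met at E14.5, where the lowest Neurog3-only set lay below the highest Fev-only set. Ephb4 fell by 1.83 ± 0.46 on the log2 scale (adjusted p = 0.0176, limma), with -1.77 in run 1 and -1.89 in run 2 alone, neither past the threshold. The call was lost without E13.5 run 1 or without E15.5 run 2. Against the other states the differences were -1.43 ± 0.46 (Neurog3 and Fev), -1.72 ± 0.59 (insulin) and -1.35 ± 0.53 (glucagon), with adjusted p of 0.144, 0.111 and 0.140. Without E13.5 run 2, the glucagon difference passed the threshold. Ephb4 lies at chr5:137350109-137378669 on the plus strand, Nrp1 at chr8:128358604-128503363 and Sema3g at chr14:31217860-31230352, also on the plus strand.

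Epha7, a receptor for ephrin-A ligands, was the member that rose. In Neurog3-only cells its 6 sets measured 4.74, 4.12, 8.30, 5.87, 0.431 and 1.29 FPKM. Fev-only sets read 53.6, 8.44, 18.1, 9.90, 17.3 and 12.4 FPKM, above the Neurog3-only cells of the same set in 6 of 6 sets. The 4 glucagon sets read 21.9, 18.5, 61.3 and 49.98 FPKM, above every Neurog3-only set from E13.5 on.
The 3 insulin sets read 0.254, 0.052 and 0.256 FPKM, below every Neurog3-only set. By cell, Epha7 was at 1 FPKM or more in 22 of 43 glucagon cells (51.2%, 35.5 to 66.7%), 32 of 66 Fev-only cells (48.5%, 35.99 to 61.1%), 37 of 152 Neurog3-only cells (24.3%, 17.8 to 31.96%) and 6 of 55 insulin cells (10.9%, 4.11 to 22.2%). In the 3 insulin sets the highest cell held 1.996 FPKM, and among the insulin cells of sets with fewer than 5 the highest held 51.2.
Epha7 rose by 2.01 ± 0.53 on the log2 scale in Fev-only (adjusted p = 0.0219, limma) and by 2.94 ± 0.60 in glucagon cells (adjusted p = 0.00492), and was lower in insulin than in glucagon cells by a log2 difference of -4.46 ± 0.74 (adjusted p = 0.00965). The difference of insulin from Neurog3-only cells was -1.52 (adjusted p = 0.253). Within run 1 and run 2 the Fev-only values were 2.66 and 1.36, neither past the threshold. The glucagon values were 1.33 in run 1 and 3.27 in run 2 (adjusted p = 0.0242 in run 2, limma). The insulin minus glucagon values were -2.07 in run 1 and -5.14 in run 2 (adjusted p = 0.0172 in run 2). The run 1 value of -2.07 sets insulin cells of E15.5 against glucagon cells of E14.5, linked only through the other states. The Fev-only call was lost without E13.5 run 1, E15.5 run 1 or E15.5 run 2, the glucagon call without E15.5 run 2, and the insulin minus glucagon call without E14.5 run 2 or E15.5 run 2. Epha7 lies at chr4:28813131-28967499 on the plus strand.

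**Figure D2:**
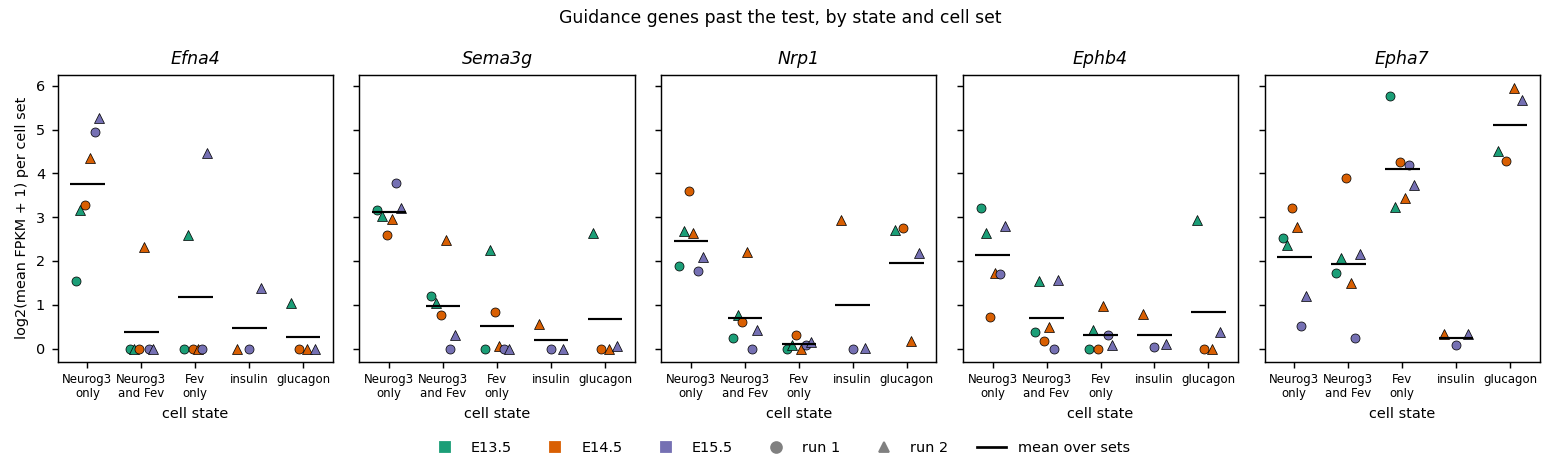
Level per cell set, as log2(mean FPKM + 1), of the 5 members past the test, by state; colours give the day, circles run 1, triangles run 2 and bars the mean over sets. Only sets of E13.5 to E15.5 are shown. Among these, Neurog3-only sets of Sema3g lie above all Neurog3 and Fev sets and all Fev-only sets, and Epha7 is low in all 3 insulin sets and high in all 4 glucagon sets.

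The calls were few, and their split into lower and higher cannot be read as a direction of the families. Members can pass the filter through Neurog3-only cells, where Sema3g and Efna4 were highest from E13.5 on. The same limit holds for the median differences below. In Neurog3 and Fev cells 0 of 40 members were higher and 2 (5%) lower than in Neurog3-only cells, against 0.893% and 0.810% of all genes called higher and lower. In Fev-only cells 1 (2.5%) was higher and 4 (10%) lower, against 3.00% and 4.11%. In insulin cells 0 were higher and 2 (5%) lower, against 3.11% and 1.71%, and in glucagon cells 1 (2.5%) higher and 2 (5%) lower, against 5.85% and 1.72%. Between insulin and glucagon cells 0 were higher and 1 (2.5%) lower in insulin cells, against 0.147% and 0.115%. The shares of lower calls rest on 1 to 4 members and were not tested against the background. The median difference of the 40 members, beside that of all genes, was -0.14 and -0.02, -0.27 and -0.07, -0.56 and 0.03, -0.23 and 0.08, and -0.21 and -0.10 in the same order. Limma at an unadjusted p under 0.05 took 7, 11, 9, 10 and 2 members (17.5%, 27.5%, 22.5%, 25% and 5%), against 12.52%, 18.6%, 16.2%, 21.3% and 9.88% of all genes.
Calls over all genes in the hormone states depended on scaling. With predicted, small RNA and mitochondrial genes left out of the total, the split of higher and lower genes went from 918 and 269 to 385 and 663 in glucagon, from 487 and 268 to 334 and 521 in insulin cells, and from 23 and 18 to 24 and 12 between them. The median of all genes moved from 0.08 to -0.33, from 0.03 to -0.25 and from -0.10 to 0.06. The 13 member calls kept their direction and stayed under an adjusted p of 0.05 with this scaling. They depended more on where the states were divided. With the hormone threshold at 10 FPKM instead of 100, Nrp1 in Fev-only cells was the 1 member called in any of the 5 comparisons, and with the Neurog3 and Fev threshold at 30 FPKM the 3 comparisons with Neurog3 and Fev, Fev-only and insulin cells called 1 member each.

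Other cell types in the states were read from marker lists at E13.5 to E15.5. The summed level of the duct or trunk markers (Sox9, Spp1, Hes1, Krt19, Anxa2 and Cldn10) was lower where members fell. All 6 had a mean of 1 FPKM or more in Neurog3-only cells, with a summed level of 489.5 to 1859 FPKM per set, against 82.8 to 700.1 in Neurog3 and Fev, 13.2 to 114 in Fev-only (Hes1 at 0), 64.8 to 88.1 in insulin and 31.9 to 569 in glucagon cells. The 8 pan-endocrine markers summed to 718 to 3116 FPKM in Neurog3-only cells and 5950 to 30410 in the other 4 states. The part of these programmes in the member differences was not tested. The 6 acinar or tip markers summed to 5.08 to 86.2 FPKM in Neurog3-only and 0.151 to 55.9 in Fev-only cells, and without the 14 Neurog3-only and 8 other cells that held 2 or more of them all 13 member calls were kept. Leukocyte markers (8) summed to 1.80 to 8.79 FPKM in Neurog3-only and 1.31 to 13.505 in Fev-only cells, and endothelium markers (7) to 0.641 to 8.72 and 0.150 to 28.1. The hormone states differed more from Neurog3-only cells in some of these lists. In insulin cells leukocyte markers summed to 21.6 to 54.5 FPKM, above every Neurog3-only set. Only Cd68 and C1qa were at 1 FPKM or more (2 of 8, against 3 of 8 in Neurog3-only cells), and Tyrobp was at 0. Endothelium markers summed there to 0.568 to 1.18 FPKM. In glucagon cells leukocyte and endothelium markers summed to 1.29 to 19.01 and 0.111 to 3.82 FPKM. The 7 mesenchyme markers summed there to 14.2 to 35.4 FPKM, against 0.237 to 16.7 in Neurog3-only cells. The part of these lists in the insulin and glucagon differences was not tested.

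The other members tested did not pass the threshold, and several had an adjusted p under 0.1 in at least 1 comparison. Plxnb1, a receptor for Sema4d, measured 11.2 ± 2.22 FPKM (n = 6) in Neurog3-only, 5.71 ± 5.26 (n = 6) in Fev-only, 3.84 ± 2.03 (n = 3) in insulin and 3.77 ± 2.33 FPKM (n = 4) in glucagon cells, with log2 differences of -1.20, -1.54 and -1.46 and adjusted p of 0.0837, 0.0991 and 0.0602. Epha8 was at 3.28 ± 3.25 FPKM in Neurog3-only cells and listed at 0 in all 6 Fev-only sets (-1.72 ± 0.53, adjusted p = 0.0536). Epha3, another EphA receptor, was higher in Fev-only cells by a log2 difference of 1.45 ± 0.51 (adjusted p = 0.0976). Sema3f in insulin cells differed by -2.07 ± 0.61 (adjusted p = 0.0577) and Unc5c, a netrin receptor, by 2.06 ± 0.62 (adjusted p = 0.0596). Sema6a, a transmembrane semaphorin, measured 9.18 ± 3.07 FPKM in Neurog3-only and 2.31 ± 2.81 in glucagon cells (-2.08 ± 0.71, adjusted p = 0.084).
Sema4a, a transmembrane class 4 semaphorin, measured 2.66 ± 3.61 FPKM in Neurog3-only, 10.005 ± 5.86 in Fev-only and 17.5 ± 16.3 in glucagon cells, and no comparison passed the test (lowest adjusted p = 0.115). Robo2 measured 1.63 ± 0.85 FPKM in Neurog3-only and 6.44 ± 3.44 in glucagon cells (adjusted p = 0.146), and Robo1 was left out by the filter. Slit3 read 0.175 ± 0.344 FPKM in Neurog3-only and 2.38 ± 2.68 in glucagon cells (adjusted p = 0.216). Efnb1 lay between 0.472 FPKM in Fev-only and 4.09 in insulin cells with no adjusted p under 0.569. Slit2, Efnb2, Dcc and Ntn1 were below the filter. At these set numbers the intervals are wide, and a member that missed the threshold was not shown to be equal between states.

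**Figure D3:**
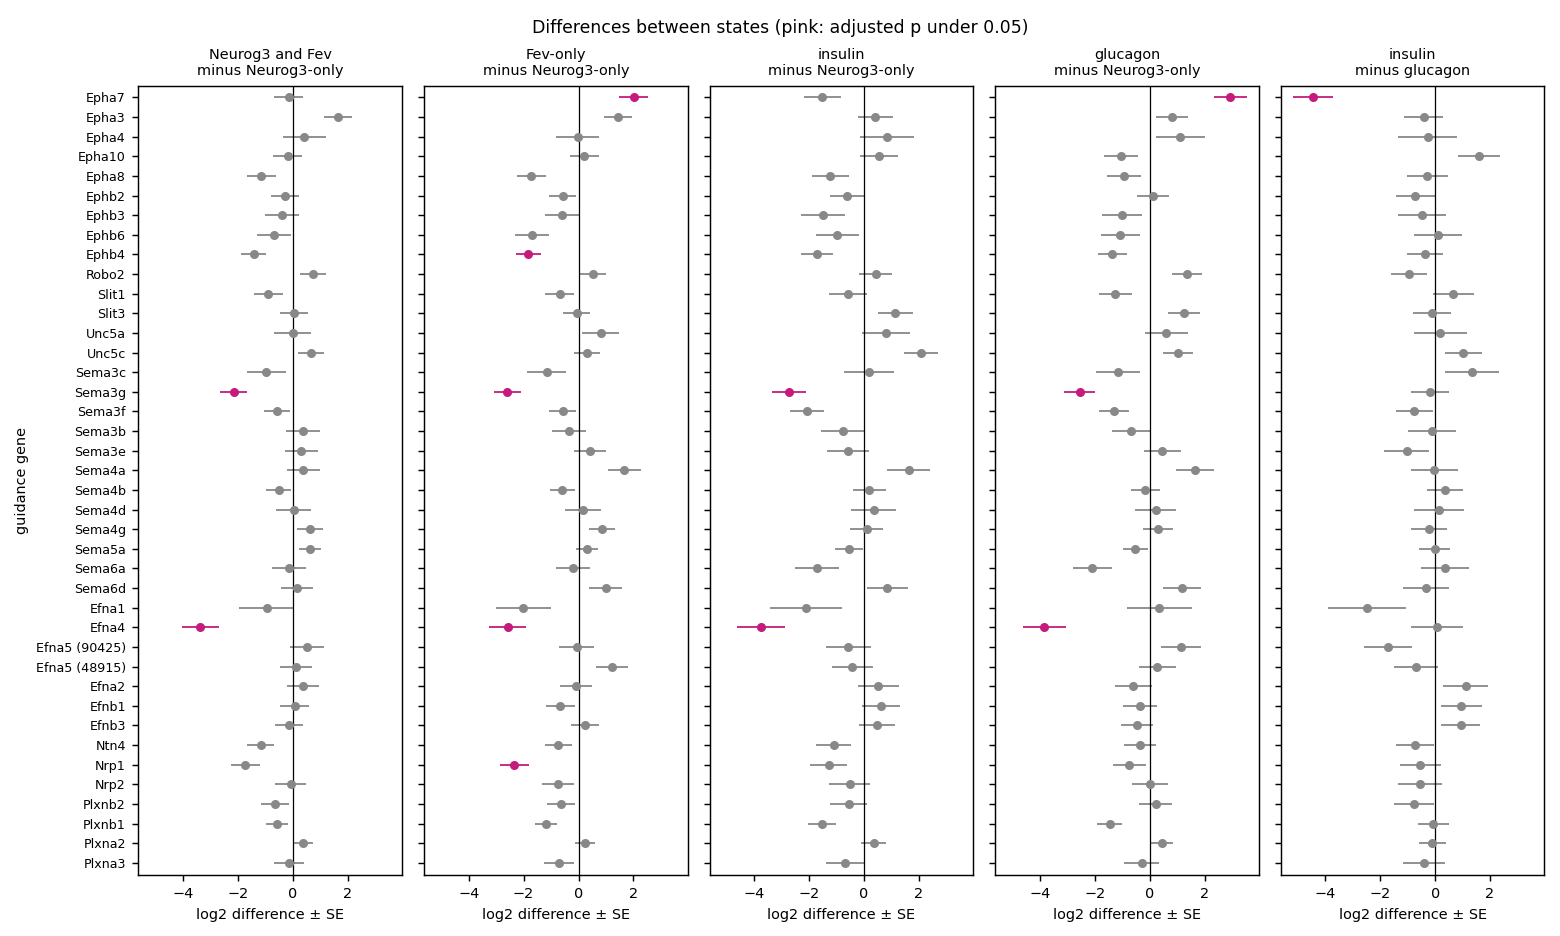
Log2 difference ± SE between states for the 40 members tested, by family, from the limma model with the set as a block; pink marks an adjusted p under 0.05. Sema3g and Efna4 stand left of 0 in all 4 comparisons with Neurog3-only cells, and Epha7 stands right of 0 in Fev-only and glucagon cells and left in insulin against glucagon cells.

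Of 68 other genes of guidance signalling, from receptors' adaptors to cytoskeletal effectors, 55 were tested between states. In Neurog3 and Fev cells 2 were higher and 0 lower, in Fev-only cells 3 higher and 4 lower, in insulin cells 1 higher, in glucagon cells 3 higher, and 0 differed between insulin and glucagon cells (7, or 12.7%, at an unadjusted p under 0.05 in limma, against 9.88% of all genes; lowest adjusted p = 0.112). As shares of the 55, the higher calls were 3.64%, 5.45%, 1.82% and 5.45% in the first 4 comparisons, against 0.893%, 3.00%, 3.11% and 5.85% of all genes, and the lower calls in Fev-only cells 7.27% against 4.11%. At an unadjusted p under 0.05 in limma the shares in these 4 were 18.18%, 25.45%, 16.36% and 38.18%, against 12.52%, 18.61%, 16.24% and 21.29% of all genes. Pak3, a p21-activated kinase downstream of Rac and Cdc42, rose by 2.47 ± 0.43 on the log2 scale in Neurog3 and Fev (adjusted p = 0.00396), 2.14 ± 0.43 in Fev-only, 2.79 ± 0.55 in insulin and 1.94 ± 0.50 in glucagon cells (adjusted p = 0.00375, 0.00493 and 0.0196). In run 1 alone the glucagon value of Pak3 was -0.14. Grb10, an adaptor of receptor tyrosine kinases, rose by 1.07 ± 0.18, 1.60 ± 0.18 and 1.15 ± 0.20 in Neurog3 and Fev, Fev-only and glucagon cells (adjusted p = 0.00232, 1.06e-05 and 0.00158).
The 4 that fell in Fev-only cells were Dpysl5, a collapsin response mediator (-3.54 ± 0.73, adjusted p = 0.00477), Dock1, an activator of Rac (-2.55 ± 0.44, adjusted p = 0.00118), Fyn, a Src-family kinase (-2.36 ± 0.64, adjusted p = 0.0264), and Adam10, a protease that cleaves ephrins (-1.41 ± 0.34, adjusted p = 0.0146). Rock1, a kinase that acts on the cytoskeleton, rose there by 0.99 ± 0.26 (adjusted p = 0.0243) and Dpysl2 in glucagon cells by 0.74 ± 0.21 (adjusted p = 0.0316). With predicted, small RNA and mitochondrial genes left out of the scaling, the calls of Rock1 in Fev-only cells and of Pak3, Grb10 and Dpysl2 in glucagon cells were lost, with the same sign. Adam10 lost its call without E15.5 run 1, and Fyn without E13.5 run 1, E15.5 run 1 or E15.5 run 2. Dpysl2 lost its call without any 1 of the 4 glucagon sets, and Rock1 without any 1 of the 6 sets other than E15.5 run 1. Pak3 lost its call in insulin cells without E15.5 run 2 and in glucagon cells without E13.5 run 2, E14.5 run 2 or E15.5 run 2.

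Whether member levels in Neurog3 cells changed with day was asked in the 6 later sets, taking Neurog3 cells with or without Fev as 1 group (30 to 47 cells a set). Limma called 0 of 37 members tested, and 0 of all 14919 genes (0%). At an unadjusted p under 0.05 it took 3 members (8.108%) and 1231 genes (8.251%), near the same share. Efna4 had the largest slope, at 1.23 ± 0.27 log2 units per day (adjusted p = 0.579), with sets at 1.47, 4.74, 5.88, 14.6, 20.9 and 18.8 FPKM. The slopes of Epha3 (-0.86 ± 0.31) and Epha8 (-0.88 ± 0.35), both EphA receptors, were the other 2. Day cannot be told apart from the Y-linked and Xist difference of the E15.5 sets. The median slope of members was -0.10, beside -0.09 over all genes.
Between runs limma called 0 of 37 members and 0.315% of all genes. At an unadjusted p under 0.05 it took 4 members (10.81%) and 2207 genes (14.79%), so the share of members was not above that of all genes. The 4 members were Sema4a (2.17 ± 0.81, higher in run 2), Efnb1 (1.66 ± 0.63), Sema3c (-1.56 ± 0.60) and Efna1 (-1.54 ± 0.59), with adjusted p from 0.310 to 0.316. The median run difference was 0.25 over members and -0.17 over all genes. Sema4a read 0.30, 1.89 and 0.00 FPKM in run 1 and 9.56, 2.14 and 9.24 in run 2 at the 3 days.

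The few Neurog3-only cells of E11.5 (6) and E12.5 (7) differed in level from the later ones. Nrp1 measured 84.9 and 27.3 FPKM there, Epha7 28.6 and 23.7, and Ephb4 16.5 and 11.52, each above every Neurog3-only set from E13.5 on. Sema3g measured 0.00 and 0.172 FPKM, below all of those sets. The 6 acinar or tip markers summed to 729 to 3294 FPKM in these 2 sets, and their part was not tested. Early and later cells were not tested against each other.

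Cells with markers of tip, leukocytes or endothelium were sorted before E13.5 in all but 2 cases, so the Neurog3-only cells of E11.5 and E12.5 are their match in age. In the 61 tip-marker cells Nrp1 measured 41.8 and 35.1 FPKM in the 2 early sets and was at 1 FPKM or more in 53 cells (86.9%, 75.8 to 94.2%). Epha7 measured 57.6 and 19.2 FPKM there, Efna1 26.2 ± 2.84 (n = 2) and Ephb4 16.5 and 9.69, while Sema3g was at 0.086 and 0.00 FPKM. Of these, Nrp1, Epha7 and Ephb4 were also held by the Neurog3-only cells of the same days, at the levels given above.
In the 43 leukocyte-marker cells Plxnb2 measured 51.6 ± 30.6 FPKM, Nrp1 40.3 ± 10.8, Sema4d, an immune semaphorin, 20.2 ± 12.2 and Plxnc1, the receptor of Sema7a, 5.30 ± 3.46 (n = 2 sets each). Plxnc1 was at 1 FPKM or more in 53.5% of these cells and in at most 9.09% of the cells of an endocrine state. Plxnb1 lay at 0.167 FPKM and Plxna3 at 0.035.
The 13 endothelium-marker cells, all of E12.5 and hence 1 set with no replicate, held several vessel genes. Efna1 measured 338 FPKM and was held by 13 of 13 cells (lower bound 75.3%), Robo4, the endothelial Robo, 74.5 FPKM in 92.3% of cells, and Nrp1 84.4 in 13 of 13. Ephb4 measured 24.2 FPKM, Sema6d 25.4, Nrp2 16.1, Plxnd1, the receptor of Sema3e, 15.4, and Robo2 12.2. Robo4 and Plxnd1 averaged 0.201 and 0.271 FPKM over the endocrine states. All values of these classes are descriptions, with no test.

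**Figure D4:**
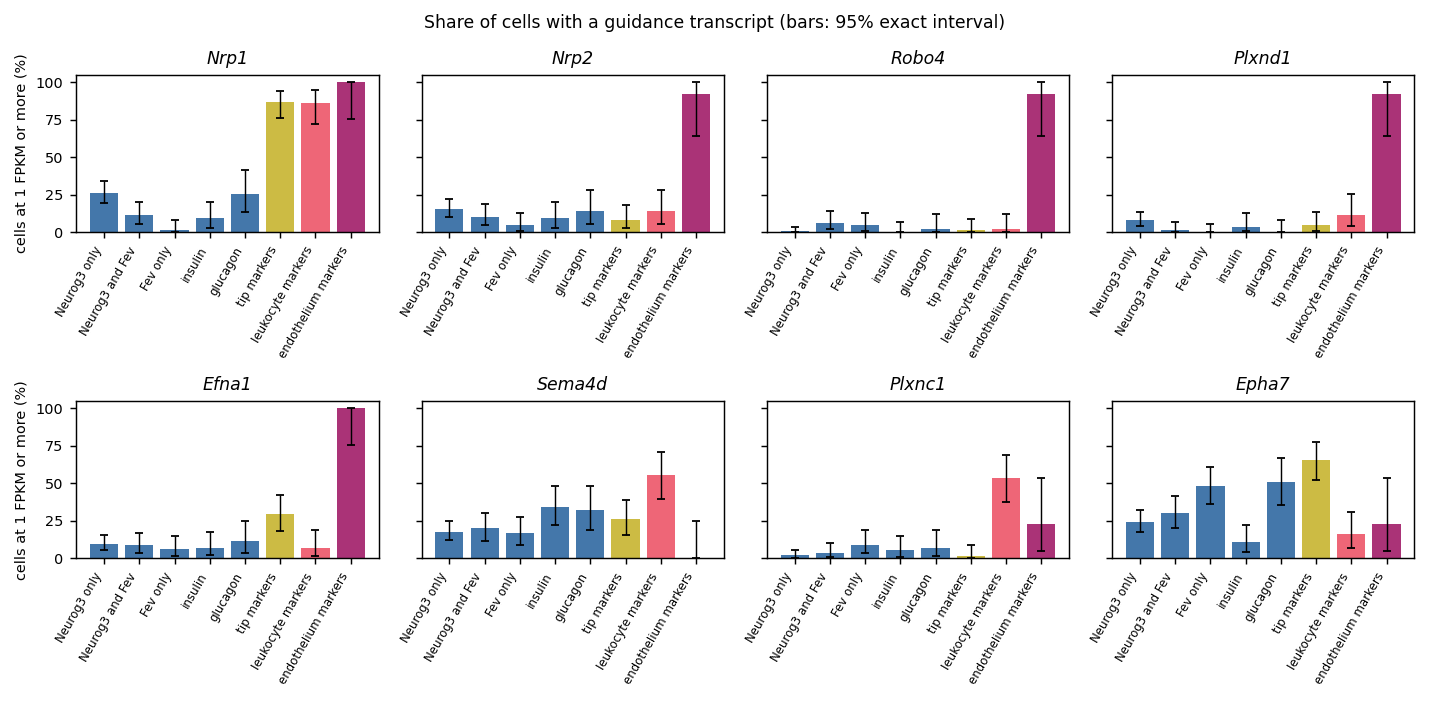
Share of cells (%) that reach 1 FPKM for 8 members in the 5 endocrine states (blue, E13.5 to E15.5) and in cells with tip, leukocyte or endothelium markers; error bars are 95% exact binomial intervals. Nrp1 is in at least 86.05% of the cells of the last 3 classes and in at most 26.3% of the cells of an endocrine state, but all but 2 cells of those classes are of E11.5 and E12.5, where 5 of 6 and 5 of 7 Neurog3-only cells (not plotted) also hold it, and Robo4 reaches 92.3% in endothelium-marker cells alone.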

How the data were processed

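Single cells were sorted into plates and made into SMART-seq and Nextera XT libraries, per the labels' protocols. The authors deposited FPKM values per gene and cell, made with TopHat2 2.0.13, Cufflinks 2.2.0 and the mm10 build, per the submitters' processing notes. The release of the gene annotation was not given in the sources used here. Libraries hold no molecular identifiers and are treated as unstranded.

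All 721 columns were mapped to cells by name and 0 were left unmapped. Python 3.11.15 formed state means, and R 4.3.3 with limma 3.58.1 (moderated linear model, trend, cell set as block, two-sided, Benjamini-Hochberg over all genes) tested log2(mean FPKM + 1). No doublet caller was run, so a cell with transcripts of 2 states can be 2 cells. FPKM give no read counts per gene, so no count model was used. Shares carry exact Clopper-Pearson 95% intervals.

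The members, states, gene lists and comparisons were chosen with earlier results of these data known. Genes named are those past the threshold (up to 10 a direction), the highest of each family, and a fixed list of guidance genes; near misses and members of the non-endocrine cells were chosen after their values were seen. On simulated data for 15681 genes, with 66 changed by 4 log2 units of difference, 87.88%, 89.39%, 66.67%, 83.33% and 63.64% were recovered in the 5 state comparisons, in the order of the text. With 2 units, 41.79%, 40.3%, 26.87%, 32.84% and 19.4% of 67 were recovered. Alternatives covered the pseudocount, gene filter, averaging, scaling, cell depth, cells per mean, state thresholds, runs and leaving out each set. Of the 70 entries, 68 matched GENCODE vM21 (GRCm38), and promoters are from RefSeq (GRCm38.p6).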

Additional observations from a re-analysis of the deposited data

Results flagged for a closer look

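Of 20 groups of sets examined for the 5 members past the test, 6 held 1 set far from the others on the log2 scale. A chance rate of about 1 in 20 groups cannot be assumed here, because several sets of a group can share the same lowest value. Where all other sets share it, as for Efna4 in Neurog3 and Fev cells and in glucagon cells, any 1 higher set is marked. The number of marked groups therefore cannot be compared with chance. The 6 flagged groups held 4 or 6 sets each. In Neurog3 and Fev cells, Efna4 at 3.996 FPKM and Nrp1 at 3.587 FPKM in E14.5 run 2 stood above the other 5 sets. In Fev-only cells, Sema3g at 3.763 FPKM in E13.5 run 2 stood above the other 5 sets. In glucagon cells, E13.5 run 2 stood above the other 3 sets for Efna4 at 1.06 FPKM, for Ephb4 at 6.658 FPKM and for Sema3g at 5.207 FPKM.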

How the results depend on the processing

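Across 263 alternative values of the 13 member calls, 184 kept their direction and stayed past the threshold, 79 lost the threshold and 0 reversed. For the 13 calls of other pathway genes, 202 of 272 were kept, 69 lost the threshold and 1 reversed, Pak3 in glucagon cells in run 1 alone (-0.139). Members called in Neurog3 and Fev cells (2) came to 1 with a pseudocount of 0.1, with the Neurog3 and Fev threshold at 30 FPKM and without E12.5 and E13.5 run 1, and to 0 with means of log values, with the hormone threshold at 10 FPKM and in run 1 or run 2 alone. Those in Fev-only cells (5) came to 2 with means of log values, 1 at either of these thresholds, 3 without E12.5 and E13.5 run 1, and 0 in either run alone. Those in insulin cells (2) came to 1 with means of log values and with the 30 FPKM threshold, 0 with the hormone threshold at 10 FPKM, 6 with it at 1000, and 0 in either run alone. Those in glucagon cells (3) came to 6 with the other scaling, 1 with cells of at least 300000 fragments, 0 with the hormone threshold at 10 FPKM, 0 in run 1 and 1 in run 2. With the other scaling the lower calls over all genes in glucagon cells went from 269 of 15681 to 663 of 18695. For the remaining settings no share over all genes was taken, and the number of members tested can differ, so these counts describe the settings alone. Epha7 between insulin and glucagon cells (1) was lost, to 0, with cells of at least 300000 fragments, with the hormone threshold at 10 FPKM and in run 1. Means of log values left 7 members to test, and of the members past the test only Epha7 was among these. Sema3g, Efna4, Nrp1 and Ephb4 could therefore not be checked with means of log values. The insulin count in that setting, and the Fev-only count apart from Epha7, are of other members, not of kept calls. Single runs leave fewer sets, and for the other settings the cause was not tested. Of single calls, Sema3g in glucagon cells was lost with at least 10 cells per mean (adjusted p = 0.224), and with no filter on low values Sema3g in Neurog3 and Fev cells (adjusted p = 0.0528) and Efna4 in Fev-only cells (adjusted p = 0.0502) were lost, all from limma. Leaving out 1 set gave 0 to 3, 3 to 6, 0 to 2, 1 to 5 and 0 to 1 members in the same order, and 0 for day and for run. All 13 member calls were kept without cells holding 2 or more tip markers, an alternative chosen after seeing the data. No paired analysis was possible because the cell numbers name wells and pair nothing across groups; the cell set was the block. Depth limits low members: 32 of 70 lay under 1 FPKM, where a value of 0 in a cell may be a missed transcript.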
